A study of Oryza sativa Indica Group with 23 samples.

Results

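Roots of salt-treated FL478 rice were set against roots of salt-treated IR29 rice, with 3 arrays in each group, which are 6 of the 23 root arrays of the series. IR29, an indica variety, is sensitive to salt, and crossing it with the tolerant landrace Pokkali gave the recombinant inbred line FL478, which tolerates salt. All 57194 rice probe sets of the Affymetrix rice array were compared, and the AFFX control and reporter probe sets were left out. A probe set is a group of short probes, in the simplest case against 1 transcript, though 95 were listed with several genes. Its deposited value is a log2 level made with RMA, which gives no call of presence or absence. Plants stood in sand and were watered with nutrient solution. For the salt groups NaCl and CaCl2 went into it from day 22, in 2 steps within 3 days, up to 7.4 dS per m, and control plants received neither. Plants of both treatments were harvested on day 30. Beside the FL478 salt and IR29 salt arrays, 3 FL478 control and 2 IR29 control arrays give the genotype difference without salt, and 3 Pokkali and 3 IR63731 salt arrays, IR63731 being a further tolerant line, give levels in other genotypes.

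Each genotype is 1 line, so a difference belongs to these lines and not to tolerance or sensitivity at large. The labels call the arrays biological replicates without saying whether they came from separate tanks, and p-values measure only the spread between these arrays. RNA came from whole roots, where fewer cells of a type and less RNA per cell cannot be told apart. Likewise, a lower level and a probed sequence that differs between the genotypes cannot be told apart on an array.

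Salt acts on a root both by lowering the water available and by bringing in sodium, which competes with potassium. Known responses include sodium retrieval from the xylem by HKT-type transporters, potassium uptake by HAK and AKT proteins, abscisic acid signalling, calcium sensing by CBL proteins with their CIPK kinases, and changes to the cell wall and to the Casparian strip that seals the endodermis. A recombinant inbred line is a mosaic of its parents and carries fixed blocks of each parental genome. By such descent FL478 and IR29 would share a large part of the genome and differ in the blocks from Pokkali. Not every difference below had that form. At 122 of 328 large ones (37.2%) IR29 lay near Pokkali and FL478 stood apart from both parents. Why was not tested.

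One array stood apart and bears on every value below. At 63 probe sets that set FL478 apart from the other genotypes by at least 2 log2 units, chosen on control arrays, FL478 salt replicate 2 lay at 0.37 of the way to FL478. At 56 probe sets private to IR63731 it lay at 0.70 of the way to IR63731, and at those of IR29 and of Pokkali it lay at 0.00. The other 11 salt arrays of the series lay between 0.95 and 1.04 for their own genotype and between -0.02 and 0.02 for the others. Of the control arrays, replicate 3 of FL478 (0.81 towards FL478, 0.21 towards IR63731) and replicate 1 of IR29 (0.52 towards IR29, 0.56 towards IR63731) also lay between genotypes. The FL478 salt against IR29 salt comparison is therefore given with and without FL478 salt replicate 2. Array medians of the log2 values were 4.35, 4.38 and 4.40 in FL478 salt and 4.36, 4.36 and 4.37 in IR29 salt. Differences between 3 prime and 5 prime control probe sets, a measure of RNA quality, were 0.78, 0.57 and 0.49 in FL478 salt and 0.69, 0.77 and 0.68 in IR29 salt. Of 7 root markers found, 1 differed, the phosphate transporter gene Pht1;8 (-0.85). The list had a median difference of -0.05, with 3 genes above 0 and 4 below. Its median level was 8.42 to 8.64 in FL478 salt and 9.02 to 9.63 in IR29 salt, which are the values of Pht1;8 itself, the middle gene by level. The part of this gene's difference in the other results was not tested. The 7 green tissue markers had list medians of 4.03 to 4.21 in FL478 salt and 4.11 to 4.27 in IR29 salt, and the 2 anther markers 3.01 to 3.14 and 3.05 to 3.17, all under the array median. Of 8 seed markers, with list medians of 3.24 to 3.65 in FL478 salt and 3.32 to 3.59 in IR29 salt, prolamin was higher (0.63).

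**Figure D1:**
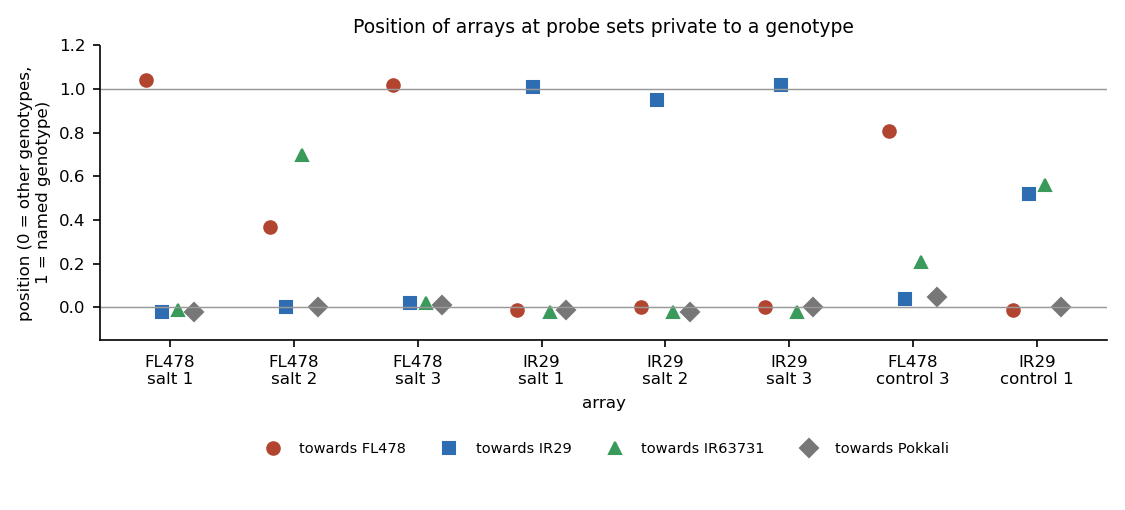
Position of each FL478 and IR29 salt array, and of the 2 control arrays that lay between genotypes, at probe sets private to FL478, IR29, IR63731 or Pokkali, on an axis from 0 (level of the other genotypes) to 1 (level of the named genotype). FL478 salt replicate 2 lies at 0.37 towards FL478 and 0.70 towards IR63731, and the other salt arrays shown lie near 1 for their own genotype and near 0 for the others.

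Between salt-treated FL478 and IR29 roots, 1139 probe sets were higher and 1002 lower in FL478 by limma with a Benjamini-Hochberg adjusted p under 0.05, which is 3.74% of those tested. Without FL478 salt replicate 2, 1072 were higher and 924 lower, or 3.49%. The 2 fits shared 1600 calls, 858 higher and 742 lower, and no call turned its sign. Differences were mostly small. The median size of those that passed was 0.856 log2 units, 132 were higher and 168 lower by at least 2 log2 units, and 33 were higher and 32 lower by at least 4. With IR29 at or below the array median and FL478 at least 2 log2 units above it there were 31 passing probe sets, and the converse held for 24. For such genes the log2 difference is given without a fold, since the lower value may be background. Values of the groups did not overlap at 2070 of the 2141 passing probe sets, against 16.1% of all probe sets. Leaving out any 1 of the 6 arrays kept 919 calls (42.9%), and among the 300 calls of at least 2 log2 units it kept 259 (86.3%). The total depended on which array was left out. It was 1178 without IR29 salt replicate 1, 1237 without IR29 salt replicate 3 and 1361 without FL478 salt replicate 3. All these fits take the spread from the other groups too, the control arrays that lay between genotypes included. The shared spread of a gene can thus be wider or narrower than that of its salt arrays. With only the arrays compared, 512 probe sets passed (262 higher, 250 lower), and 58 of 82 passing named genes did not. A call said below to hold with any 1 array left out may therefore still need the shared spread.

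The array annotation gave 1 gene to 22436 probe sets, and over the 17905 genes so represented, each by its brightest probe set, 595 were higher (3.32%) and 480 lower (2.68%) in FL478. Of these, 798 also passed without replicate 2, and 105 of the 798 had a name besides a locus identifier. For the passing genes with more than 1 probe set, 250 of 302 other probe sets (82.8%) differed in the same direction. Of the others, 4 passed the opposite way, in LOC4348151, TLP12, LOC4338201 and LOC4323841, genes picked out here because of these values. Of the 82 passing genes named by the rule given with the processing, 19 had several probe sets. In 13 of the 19 all went in 1 direction, and in 9 a second probe set passed the same way.

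With all arrays, the metal transporter gene IRT2 had the largest difference among genes with a name, while without FL478 salt replicate 2 those of E727A and pinA, described further on, were larger. IRT2 is one of the iron(II) transporter genes through which rice roots take up free ferrous iron, beside the uptake of iron chelates. It stood at 10.49, 11.15 and 10.81 in FL478 salt arrays, against 4.33, 4.35 and 4.25 in IR29 salt arrays, on the log2 scale. All FL478 values lay far above the array median and all IR29 values at about the median. The difference was 6.51 log2 units (SE 0.87, limma adjusted p = 0.000116) and 6.34 without FL478 salt replicate 2. Pokkali salt arrays averaged 11.16 ± 0.45 and IR63731 salt arrays 11.23 ± 0.42 (SD, n = 3 each), so IR29 was the genotype set apart. In control roots IRT2 stood at 12.02, 12.09 and 11.77 in FL478, against 10.76 and 4.51 in IR29. The high IR29 control value belongs to replicate 1, the array with IR63731 signal. Both control values enter the shared spread behind the SE of 0.87, while the SD was 0.33 in FL478 salt and 0.06 in IR29 salt. IRT1, the related transporter gene, was among the 26 of 28 iron genes that did not pass.

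CASPL1D1, which encodes a membrane protein related to those that lay down the Casparian strip, had the largest fall among genes with a name that held with any 1 array left out. Its values were 7.24, 6.62 and 7.47 in FL478 salt, against 12.80, 12.54 and 12.71 in IR29 salt. Both groups were tight and lay well above the array median. The difference of -5.57 (SE 0.46, limma adjusted p = 2.69e-07) was -5.33 without replicate 2. Pokkali averaged 7.13 ± 0.39 and IR63731 7.55 ± 0.55 (SD, n = 3 each), both at the level of FL478. Of the 22 genes of this family measured, 3 were higher, CASPL4B4 (0.61), CASPL2C1 (0.52) and CASPL5B2 (0.39), and CASPL1D1 was the only one lower, while CASP1 did not pass. Each of these 3 lost its call without IR29 salt replicate 1 and without 2 other single arrays (adjusted p up to 0.142), and CASPL4B4 without FL478 salt replicate 2 had an adjusted p of 0.0621.

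ILL3, which encodes an amidohydrolase of the family that frees auxin from its amino acid conjugates, had values of 7.67, 6.83 and 6.80 in FL478 salt, against 3.76, 4.01 and 3.90 in IR29 salt. No value overlapped, and the difference was 3.21 (SE 0.28, limma adjusted p = 4.94e-07). ILL3 was near FL478 in Pokkali (6.81) and near IR29 in IR63731 (3.92). PSK4, a gene for a precursor of the growth peptide phytosulfokine, stood at 9.0, 7.39 and 7.84 in FL478 salt, against 4.73, 5.15 and 5.01 in IR29 salt. The lowest FL478 value, of replicate 2, was still over 2 log2 units above the highest IR29 value, and the difference was 3.11 (SE 0.48, limma adjusted p = 0.000486).

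BURP2, a gene of the plant BURP-domain proteins, had values of 10.62, 8.52 and 8.91 in FL478 salt, against 6.45, 5.66 and 5.90 in IR29 salt. Replicate 1 was the high FL478 array, and the groups did not overlap. The difference was 3.35 (SE 0.63, limma adjusted p = 0.0035) at this probe set, the brighter of 2. At the other it was 0.44 and did not pass. Pokkali lay at the IR29 level (5.67 ± 0.30) and IR63731 near FL478 (9.75 ± 0.91, SD, n = 3 each). BURP10, a relative known to rise under salt, was measured at 7.61, 9.09 and 9.50 in FL478 salt and 9.69, 9.15 and 9.35 in IR29 salt, and did not pass (-0.66, adjusted p = 0.582).

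Among enzymes of oxidative metabolism, APX5, an ascorbate peroxidase gene, had values of 5.58, 6.18 and 5.25 in FL478 salt, against 3.16, 3.07 and 3.10 in IR29 salt. The IR29 values lay below the array median, and the highest FL478 value was that of replicate 2. The difference was 2.56 (SE 0.32, limma adjusted p = 5.69e-05) and 2.31 without that array. IR63731 averaged 6.51 and Pokkali 3.92. The cytosolic relative APX1 was 0.48 higher, a call that ended when any 1 array but FL478 salt replicate 2 was left out (adjusted p up to 0.078), and the other 17 of 19 antioxidant genes, the catalase genes CAT-A and CAT-B among them, did not pass.

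SPO11-4, from a family known for starting meiotic recombination, stood at 9.23, 8.07 and 9.38 in FL478 salt and 6.58, 6.39 and 6.62 in IR29 salt. FL478 replicate 2 was the low array of its group, between the other FL478 arrays and the means of IR29 (6.53) and IR63731 (6.45), while Pokkali averaged 9.20. The difference of 2.36 (SE 0.23, limma adjusted p = 2.44e-06) grew to 2.78 without it. PEX11-1, a gene of peroxisome proliferation, showed the same more sharply, with 6.83, 4.60 and 6.95 in FL478 salt against 4.24, 4.35 and 4.24 in IR29 salt. Its difference was 1.85 (SE 0.39) with all arrays and 2.61 without replicate 2, whose value lay near the low means of IR29 (4.28), Pokkali (4.16) and IR63731 (3.94). The PEX11-1 call was lost without FL478 salt replicate 1 or 3 (adjusted p up to 0.0626).

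**Figure D2:**
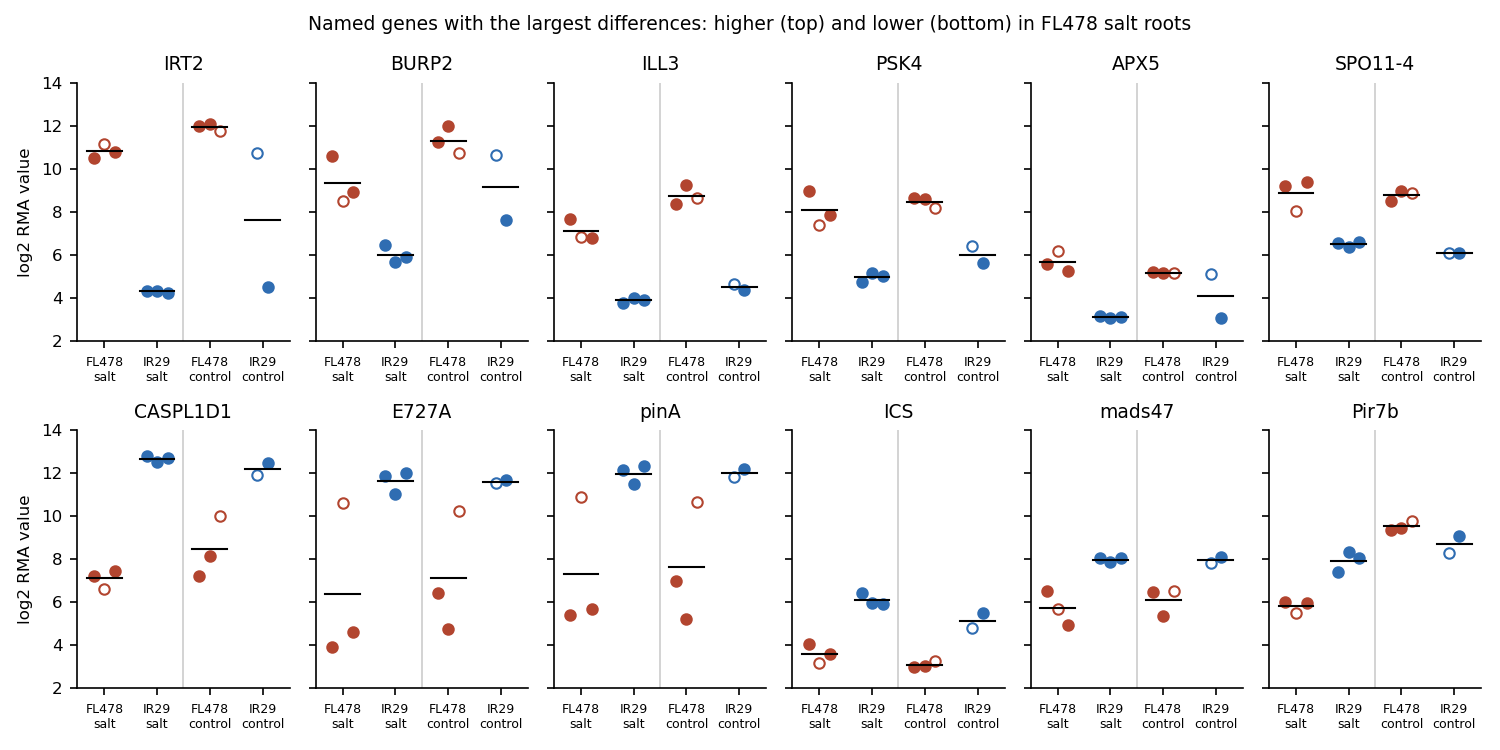
Log2 RMA values per array of the 6 named genes with the largest positive (top row) and the 6 with the largest negative differences (bottom row), in FL478 salt, IR29 salt, FL478 control and IR29 control roots, with a bar at each group mean and open circles for the 3 arrays that lay between genotypes. IRT2 lies between 10.49 and 11.15 in FL478 salt and at 4.25 to 4.35 in IR29 salt, and in E727A and pinA the open FL478 circles lie near the IR29 values.

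Lower in FL478 was ICS, the gene for isochorismate synthase, an enzyme at the start of one route to salicylic acid. It had values of 4.05, 3.16 and 3.61 in FL478 salt, against 6.43, 5.96 and 5.90 in IR29 salt. FL478 lay below the array median on each array and IR29 above it. The difference was -2.49 (SE 0.20, limma adjusted p = 2e-07), and Pokkali (3.33) and IR63731 (3.28) lay with FL478. The MADS-box factor gene mads47 stood at 6.51, 5.67 and 4.96 in FL478 salt, against 8.04, 7.87 and 8.05 in IR29 salt. Groups did not overlap, although the FL478 arrays were spread, and the difference was -2.28 (SE 0.35, limma adjusted p = 0.000504). Pokkali (8.39) lay with IR29.

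Pir7b, an esterase gene known from defence against rice blast, had values of 6.0, 5.52 and 5.96 in FL478 salt, against 7.42, 8.33 and 8.07 in IR29 salt. Its difference was -2.11 (SE 0.43, limma adjusted p = 0.00663). In control roots it went the other way, without passing, at 9.37, 9.44 and 9.78 in FL478 and 8.30 and 9.09 in IR29. The test of salt difference less control difference for Pir7b gave -2.94 and did not pass (adjusted p = 0.491).

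For 3 genes with very large falls FL478 salt replicate 2 went against its group. E727A, which encodes a Bowman-Birk trypsin inhibitor, a kind of protein made against insects and microbes, had values of 3.93, 10.61 and 4.64 in FL478 salt, against 11.88, 11.02 and 12.03 in IR29 salt. The middle FL478 value, replicate 2, lay near the high means of Pokkali (10.93), IR63731 (11.26) and IR29 (11.64), and the other 2 near the array median. The difference was -5.25 (SE 1.25, limma adjusted p = 0.0215) and -7.36 (adjusted p = 3.82e-05) without replicate 2. Its neighbour pinA had 5.40, 10.90 and 5.68 in FL478 salt, against 12.15, 11.48 and 12.32 in IR29 salt, and a difference of -4.66, or -6.44 without replicate 2. LOC4328727 had 5.04, 13.05 and 5.04 in FL478 salt, against 13.36, 13.33 and 13.45 in IR29 salt. The difference there was -5.67 with all arrays and -8.34 without replicate 2, and Pokkali (13.33) and IR63731 (13.39) lay with IR29. With all arrays these 3 calls were lost when FL478 salt replicate 1 or 3 or IR29 salt replicate 1 or 3 was left out, and that of LOC4328727 also without IR29 salt replicate 2 (adjusted p up to 0.214).

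Several genes with only a locus identifier also differed by over 5 log2 units. LOC4349330 stood at 11.75, 11.56 and 11.84 in FL478 salt, against 3.59, 6.0 and 3.57 in IR29 salt. IR29 salt replicate 2 lay over 2 log2 units above the other IR29 arrays, and the difference was 7.33 (SE 0.69, limma adjusted p = 1.47e-06). LOC4352472 was 6.71 higher, LOC9268385 5.59 and LOC4324010 5.06. Other probe sets gave 3.93 for LOC4352472 and 0.35 to 3.62 for LOC4324010. At the other end, LOC4335019 had 3.45, 3.05 and 2.98 in FL478 salt against 9.52, 9.22 and 9.69 in IR29 salt, and LOC4342354 had 3.14, 3.24 and 3.22 against 8.63, 9.37 and 8.87. Every FL478 value of both lay below the array median and every IR29 value far above it, with differences of -6.31 and -5.76. Pokkali was with IR29 for LOC4335019 (10.35) and with FL478 for LOC4342354 (2.99). LOC4349330 and LOC4352472 were high in FL478 and low in Pokkali (3.57 and 3.79) as well as in IR29.

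Genes were also counted by groups of known function. Of 1056 genes in 41 lists, 39 were higher and 31 lower in FL478, beside 3.32% and 2.68% of all genes, and 16 lists held no passing gene. The median difference over all genes was -0.01. Counts per list are small, and nothing is read from them beyond the members named.

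In sodium and potassium transport, 1 of 28 genes was higher and 2 were lower. HAK5, a potassium transporter gene known for uptake at low potassium, had values of 12.64, 12.78 and 12.83 in FL478 salt, against 13.38, 13.20 and 13.48 in IR29 salt. These values are from the brighter of 2 HAK5 probe sets, and the other differed by 0.02. All arrays were high at the brighter one, and FL478 lay below IR29 there throughout (-0.60, SE 0.13, limma adjusted p = 0.00938). The call was lost without IR29 salt replicate 3 (adjusted p = 0.062), as was that of the potassium channel gene KCO2 (-1.0). HAK2 was 0.27 higher and lost its call without any 1 of the 6 arrays.

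HKT1;5, the sodium transporter gene that withdraws sodium from the xylem in rice roots, did not pass. It had 7.62, 6.93 and 7.24 in FL478 salt and 6.18, 5.13 and 7.63 in IR29 salt. The IR29 arrays ran from below to above the FL478 range. The difference was 0.95 (SE 0.68, adjusted p = 0.569), and levels were 5.22 in Pokkali and 8.43 in IR63731. The potassium channel gene AKT1 differed by 0.21 (SE 0.24, adjusted p = 0.761).

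Most other genes known from work on salt did not pass either, which does not show that their levels were equal. The proline synthesis genes P5CS1 and P5CS2 differed by -0.11 (SE 0.16) and 0.08 (SE 0.23), and P5CS2 turned to -0.13 without FL478 salt replicate 2. The lectin gene salT differed by -0.14 (SE 0.23), the dehydrin gene Dhn1 by 0.16 (SE 0.28), LEA19 by -0.16 (SE 0.18), and the factor genes NAC6 and DREB2A by -0.20 (SE 0.24) and -0.30 (SE 0.21). None of these 7 passed (adjusted p from 0.563 to 0.917). RAB21, a dehydrin gene that answers abscisic acid, did pass, with 5.91, 5.58 and 6.74 in FL478 salt against 4.92, 4.79 and 4.48 in IR29 salt. Its groups did not overlap, and the difference was 1.35 (SE 0.24, limma adjusted p = 0.00208). With only the arrays compared RAB21 did not pass (limma adjusted p = 0.115). The other 6 of 7 dehydrin and LEA genes and all 15 osmolyte synthesis genes did not pass by limma, the osmolyte genes with 2 higher and 1 lower at an unadjusted p under 0.05. Without replicate 2, 1 osmolyte gene was higher.

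In abscisic acid signalling the kinase gene SAPK6 was the only passing member of 19, at 8.46, 8.19 and 8.5 in FL478 salt and 7.12, 7.58 and 7.47 in IR29 salt. The gap between the groups was larger than the range of either, and the difference was 0.99 (SE 0.16, limma adjusted p = 0.000964). The related SAPK4 was 0.40 higher with an adjusted p of 0.0556. PP2C phosphatases, some of which hold such kinases in check, had 0 of 56 higher and 4 lower, among them PP2C78 (-0.59), PP2C31 (-0.57) and PP2C40 (-0.44). None of the 4 passed with each single array left out, and 3 genes of the list were lower without FL478 salt replicate 2.

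Calcium sensing through CBL and CIPK proteins had 4 of 31 genes higher and none lower, and the same counts without FL478 salt replicate 2. CIPK3, a kinase gene, stood at 9.64, 9.26 and 9.58 in FL478 salt, against 8.51, 8.80 and 8.28 in IR29 salt. No values overlapped (0.96, SE 0.19, limma adjusted p = 0.00603). The other CIPK3 probe set differed by 0.26 and did not pass. CBL10, which encodes a calcium sensor known in Arabidopsis for salt tolerance of the shoot, was higher by 0.56 (SE 0.12, adjusted p = 0.0073). CIPK3 and CBL10 passed with any 1 array left out, and CIPK6 (1.22) did not pass without FL478 salt replicate 1 or 3 or IR29 salt replicate 1 (adjusted p up to 0.145). With only the arrays compared, CIPK3 and CBL10 did not pass (limma adjusted p = 0.064 and 0.106). CIPK24, the rice counterpart of the kinase that switches on sodium export, did not pass. The calcium-dependent kinase gene CPK23 was 0.78 higher (SE 0.14, adjusted p = 0.0023), but did not pass with only the arrays compared (limma adjusted p = 0.184).

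Cellulose and wall polysaccharides had 4 of 41 genes higher and none lower, and 6 higher without FL478 salt replicate 2. CESA3, a catalytic subunit of the cellulose synthase of primary walls, had values of 12.76, 12.63 and 12.68 in FL478 salt, against 12.34, 12.25 and 12.23 in IR29 salt. The arrays of each group lay close together, so this difference of 0.41 (SE 0.07, limma adjusted p = 0.0016) passed although it is small. CSLC2, a xyloglucan backbone synthase family gene, was 0.61 higher (SE 0.09, adjusted p = 0.000316) and CESA5 0.48 higher. CESA3 and CSLC2 passed with any 1 array left out, while CESA5 did not pass without FL478 salt replicate 3 or IR29 salt replicate 1 or 3 (adjusted p up to 0.125). With only the arrays compared, CESA3 and CSLC2 did not pass either (limma adjusted p = 0.154 and 0.0552). By limma none of 29 expansin genes, 29 genes of lignin synthesis enzymes and 24 aquaporin genes passed, with 0, 1 and 7 of them higher and 0 lower at an unadjusted p under 0.05.

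Sugar genes had 4 of 43 higher and none lower, and 2 higher without FL478 salt replicate 2. The SWEET family sugar transporter gene listed as MtN3-like (LOC4324213) stood at 8.23, 8.94 and 8.44 in FL478 salt, against 6.55, 7.85 and 6.65 in IR29 salt. IR29 salt replicate 2 came nearest to FL478, without reaching it. The difference was 1.52 (SE 0.26, limma adjusted p = 0.00144). It passed with any 1 array left out but not with only the arrays compared (adjusted p = 0.15). SWEET1a (1.22) and the cell wall invertase gene CIN7 (1.10) no longer passed without FL478 salt replicate 2 (adjusted p = 0.0666 and 0.086) or without FL478 salt replicate 3 for CIN7 and 1 for SWEET1a, and neither passed without IR29 salt replicate 3 (adjusted p up to 0.144). SWEET1a also did not pass without IR29 salt replicate 1. SWEET4 went the other way on FL478 salt replicate 2, with 10.87, 10.06 and 10.77 in FL478 salt and 9.42, 9.70 and 9.44 in IR29 salt. It passed only without replicate 2, at 1.30 (adjusted p = 0.0237) against 1.05 (adjusted p = 0.0573) with all arrays, and is named here because of these values.

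Nutrient transporters differed singly. Nramp1, a gene for a divalent metal transporter, had values of 9.27, 9.66 and 9.31 in FL478 salt, against 11.36, 10.34 and 12.19 in IR29 salt. IR29 was spread over almost 2 log2 units and stayed above FL478. The difference was -1.88 (SE 0.42, limma adjusted p = 0.0138), lost without FL478 salt replicate 3 or IR29 salt replicate 1 or 3 (adjusted p up to 0.101). HMA4, a gene for a copper transporter of the vacuole, was lower on every array, at 9.67, 9.75 and 9.46 in FL478 salt and 10.39, 10.48 and 10.41 in IR29 salt. Its groups were tight (-0.80, SE 0.13, limma adjusted p = 0.00072), and the call held with any 1 array left out. ZIP2 (0.85), of the zinc and iron transporter family, did not pass without FL478 salt replicate 2 (adjusted p = 0.0868) or 3 or IR29 salt replicate 1 or 3 (adjusted p up to 0.164).

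The phosphate transporter genes went both ways. Pht1;4 stood at 9.25, 9.38 and 9.48 in FL478 salt, against 7.91, 7.87 and 7.84 in IR29 salt, 1.5 higher (SE 0.35, limma adjusted p = 0.0185). Though the 6 arrays were tight, the call was lost without FL478 salt replicate 3 or IR29 salt replicate 1 or 3 (adjusted p up to 0.0735). Those fits share the spread with other groups, among them IR29 control at 8.90 and 6.75. With only the arrays compared Pht1;4 passed more clearly (limma adjusted p = 0.000941). LPT1, also called Pht1;6, was 1.0 lower (SE 0.20, adjusted p = 0.00533) and held with any 1 array left out, and Pht1;8 was 0.85 lower but did not pass without IR29 salt replicate 1 or 3 (adjusted p up to 0.0841). In nitrogen metabolism, the glutamine synthetase gene GLN1-3 was 0.91 higher (SE 0.13, adjusted p = 0.000346) and the allantoinase gene ALN, of the pathway that recovers nitrogen from purines, 1.46 higher (SE 0.29, adjusted p = 0.00599). With only the arrays compared, GLN1-3 did not pass (limma adjusted p = 0.0843) and ALN did (0.00363).

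Cytokinin genes had 0 of 31 higher and 4 lower, and 2 lower without FL478 salt replicate 2. ORR4, a type A response regulator gene that damps the cytokinin signal, had 10.34, 10.29 and 10.28 in FL478 salt, against 10.78, 10.77 and 10.84 in IR29 salt. The arrays of each group agreed to within 0.1 log2 units, and the difference was -0.49 (SE 0.09, limma adjusted p = 0.00425). With only the arrays compared ORR4 did not pass (limma adjusted p = 0.0807). LOGL5 (-0.78) and LOG (-0.75), genes of enzymes that release active cytokinin, lost their calls without FL478 salt replicate 1 or 3 or IR29 salt replicate 1 or 3, and LOG also without FL478 salt replicate 2 (adjusted p up to 0.228). The other LOG probe set differed by 0.21. Among 59 auxin genes the carrier gene PIN5 was higher (1.24, and 0.99 with adjusted p = 0.177 without FL478 salt replicate 2). GH3.6 (-0.52) and the carrier gene PIN10a (-0.63, but 0.02 at its other probe set) were lower. Of these GH3.6, whose family joins auxin to amino acids, passed with any 1 array left out, while PIN5 did not without FL478 salt replicate 1 or IR29 salt replicate 1 or 2 either, nor PIN10a without FL478 salt replicate 1 or 3 or IR29 salt replicate 1 (adjusted p up to 0.2). With only the arrays compared, GH3.6 did not pass (limma adjusted p = 0.121).

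Defence genes had 4 of 26 lower and 1 higher, HIRL2 (1.64), and 3 were lower without FL478 salt replicate 2. The chitinase gene Cht6 had values of 5.61, 6.28 and 5.73 in FL478 salt, against 8.74, 6.29 and 8.75 in IR29 salt. IR29 salt replicate 2 lay at the FL478 level, unlike the other IR29 arrays, and the difference of -2.05 (SE 0.47, limma adjusted p = 0.0157) was lost without any 1 of FL478 salt replicates 1 and 3 and IR29 salt replicates 1 and 3 (adjusted p up to 0.119). NH1, the rice counterpart of the salicylic acid receptor gene NPR1, was 1.03 lower and did not pass without FL478 salt replicate 2 (adjusted p = 0.102) or IR29 salt replicate 1 or 3 (adjusted p up to 0.14). HIRL2 did not pass without IR29 salt replicate 3 (adjusted p = 0.0842). WOX11, a homeobox factor gene of crown root growth, showed the same array pattern as Cht6, with 3.20, 3.73 and 3.4 in FL478 salt against 5.87, 3.63 and 5.78 in IR29 salt. It is the passing named gene whose groups overlapped (-1.65, SE 0.41, limma adjusted p = 0.0299). Its call too was lost without any of those 4 arrays (adjusted p up to 0.195).

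The same IR29 array bears on the total: without IR29 salt replicate 2, 1506 probe sets were higher and 1534 lower. Among lists with no gene passing by limma, 33 jasmonate genes had a median difference of -0.39, with 2 higher and 8 lower at an unadjusted p under 0.05. For 17 phytoalexin genes the median was -0.21 (1 higher, 0 lower at that p), and for 14 ABC transporter genes -0.34 (0 higher, 4 lower), of which 1 was lower after adjustment without FL478 salt replicate 2. Beta-glucosidases, which release sugars, hormones and defence compounds from their conjugates, had 4 of 27 higher and 2 lower, and 2 each way without FL478 salt replicate 2. BGLU33 had 3.7, 3.35 and 3.64 in FL478 salt, against 5.52, 5.07 and 5.58 in IR29 salt. FL478 was below the array median and IR29 above it (-1.83, SE 0.17, limma adjusted p = 1.55e-06), and BGLU13, 0.74 higher, also held with any 1 array left out. With only the arrays compared BGLU13 did not pass (adjusted p = 0.105), and its other probe set differed by -0.08.

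**Figure D3:**
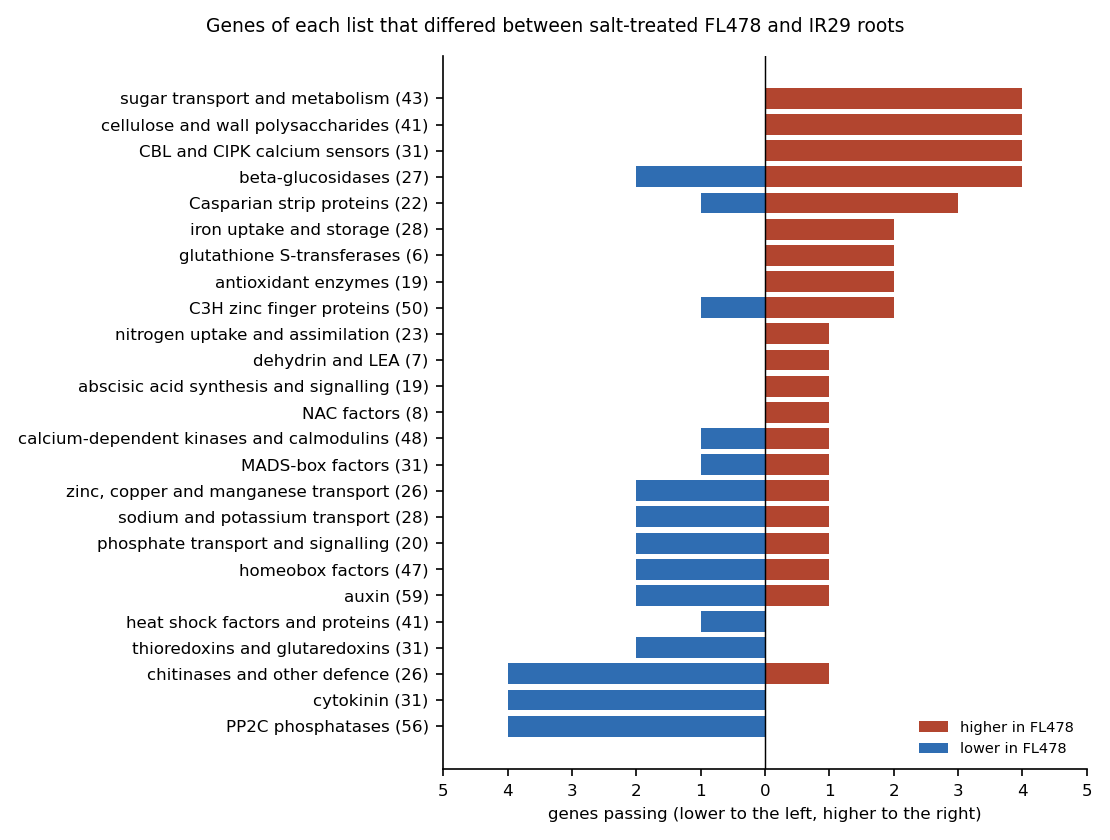
Number of genes in each list that passed as higher (right, red) or lower (left, blue) in salt-treated FL478 than in IR29 roots, for the lists of functions with at least 1 passing gene, with the number of measured genes in brackets. Sugar, cellulose and CBL and CIPK lists have 4 higher and none lower, and cytokinin and PP2C lists 4 lower and none higher.

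None of 7 clock genes passed by limma, nor did any have an unadjusted p under 0.05, and they were spread within groups. PCL1, an evening gene, had 7.12, 9.70 and 5.50 in FL478 salt and 7.35, 10.10 and 4.57 in IR29 salt. In both genotypes replicate 2 was high and replicate 3 low. The morning gene CCA1 had 11.34, 9.11 and 11.34 in FL478 salt and 10.47, 8.87 and 11.67 in IR29 salt, with replicate 2 low in both. Their part in the genotype differences was not tested.

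The question whether the differences belong to salt was put to control roots, which share no array with the salt comparison. FL478 and IR29 control roots differed at 788 probe sets (1.38%), 382 higher and 406 lower. Of the 2141 salt calls, 2030 (94.8%) had the same direction in control roots, against 62.8% of all probe sets, and 611 passed in both with the same direction. No probe set passed in opposite directions. Those 611 are 28.5% of the salt calls and 77.5% of the control calls. The salt calls had a median size of 0.856 in salt and of 0.487 in control along the same direction, and the control calls one of 1.27 in control and 1.21 in salt. Each set of calls was chosen on its own values, and the control values include arrays that lay between genotypes. These medians therefore do not show that salt enlarges the genotype difference. Without the 3 arrays between genotypes, 1914 of 1994 salt calls (96.0%) kept the direction in control, and 695 of them passed there.

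**Figure D4:**
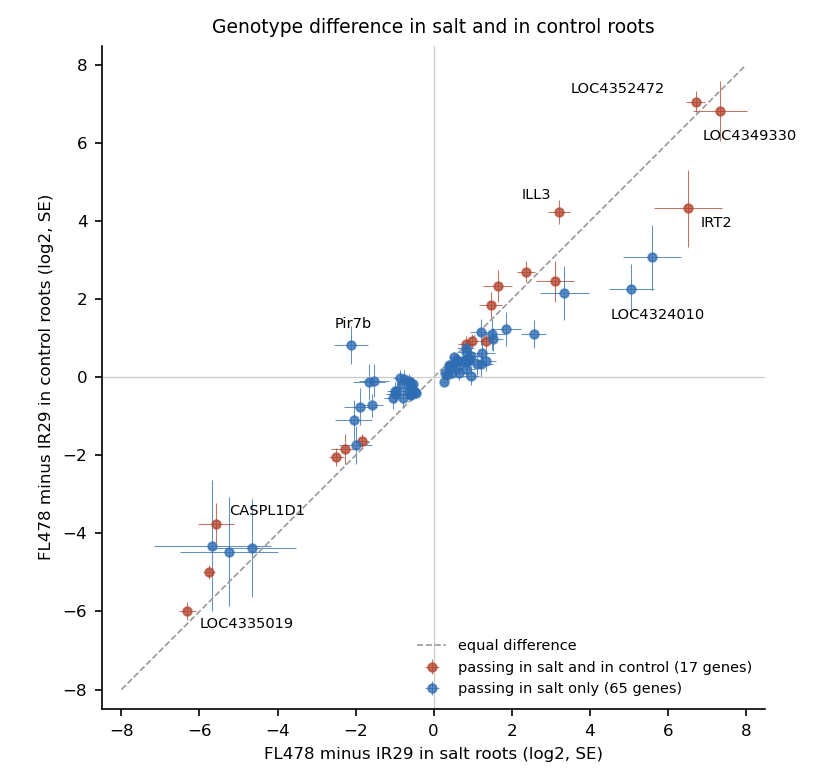
FL478 minus IR29 difference (log2, bars are standard errors) in salt roots on the horizontal axis and in control roots on the vertical axis, for the 82 named genes that passed in salt, of which 17 also passed in control. Most points lie along the line of equal difference or between it and 0, and Pir7b and, close to 0, HAK2 lie on the other side of 0 in control roots.

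Differences with salt and control set against each other passed at 1 probe set (0.00175%), with 2628 at an unadjusted p under 0.05 by limma. That probe set belongs to LOC4335593 and differs without salt, not with it. In FL478 it had 2.90, 3.09 and 3.38 in salt, against 5.97, 5.62 and 4.98 in control. In IR29 it had 3.25, 3.31 and 3.44 in salt, against 3.25 and 3.27 in control. Only the FL478 control arrays were raised, and the 12 IR63731 and Pokkali arrays ran from 2.96 to 3.80. The difference of differences was -2.47 (SE 0.29, limma adjusted p = 0.00557). Leaving out IR29 control replicate 2, the IR29 control array without IR63731 signal, gave 65 such probe sets, 45 positive and 20 negative, in place of 1.

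Large salt differences with a small control difference were few. Of 288 probe sets with at least 2 log2 units in salt that passed with and without FL478 salt replicate 2, 265 differed by at least 1 log2 unit the same way in control, and 23 did not. Of the 23, 15 were lower and 8 higher in FL478, and 13 also stayed under 1 without the 3 arrays between genotypes. The examples that follow were chosen after their values were seen. LOC4324944 had 7.63, 9.42 and 10.17 in FL478 salt and 11.02, 11.51 and 12.04 in IR29 salt, against 12.30, 12.08 and 12.47 in FL478 control and 12.24 and 12.33 in IR29 control. Control arrays of both genotypes were level, every IR29 salt array lay below them, and each FL478 salt array lay below each IR29 salt array (-2.45, limma adjusted p = 0.0117). LOC4325750 had 6.48, 5.74 and 6.67 in FL478 salt and 8.66, 8.34 and 9.08 in IR29 salt, against 8.84, 8.06 and 8.53 in FL478 control and 8.37 and 8.81 in IR29 control. In LOC4325750 only the FL478 salt arrays were low (-2.39, limma adjusted p = 0.000133). The difference of differences did not pass for either gene (adjusted p = 0.993 and 0.478), so a change between treatments is not shown for them.

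FL478 levels were then set beside Pokkali, its other parent, as a description. At 328 probe sets that differed by at least 2 log2 units without FL478 salt replicate 2 and passed both with and without it, FL478 lay within 1 log2 unit of Pokkali and IR29 at least 1 away at 169 (51.5%). Of these 169, 62 were higher and 107 lower in FL478, and IR63731 lay within 1 log2 unit of FL478 at 115 of them. IR29 lay within 1 log2 unit of Pokkali and FL478 at least 1 away at 122 (37.2%), 62 higher and 60 lower in FL478. The remaining 37 (11.3%) fell in neither class. CASPL1D1, ICS, IRT2 and ILL3 belong to the genes near Pokkali, and BURP2, mads47, LOC4349330 and LOC4328727 to those in which Pokkali lay nearer IR29 than FL478.

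Differing genes lay next to each other in the genome more often than other genes. Among 17905 genes in annotation order, 155 of the 798 genes that passed with and without FL478 salt replicate 2 (19.4%) had a passing neighbour, against 7.99% of genes that did not pass. There were 13 runs of at least 3 such neighbours, with 43 genes. The longest held 5 genes, LOC4323860 (2.18), LOC4323861 (0.86), LOC4323862 (-1.36), LOC4324190 (2.30) and LOC4324191 (0.83). In this run LOC4324190 had 7.63, 7.89 and 7.52 in FL478 salt, against 5.68, 5.13 and 5.31 in IR29 salt, and Pokkali (7.63) and IR63731 (7.66) were level with FL478. A run of 4, LOC4351890 to LOC9272184, was lower throughout, by -3.54, -2.87, -2.26 and -2.58, with Pokkali at the FL478 level.

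Elsewhere FL478 was the genotype set apart from both parents. In the run of LOC4326000, pinA and E727A, FL478 was low. Pokkali lay near IR29 for pinA and E727A, and between the means of FL478 and IR29 for LOC4326000 (6.51). In that of LOC4327840, LOC4327841 and LOC4327842, FL478 was higher by 4.46, 3.61 and 2.35. LOC4327840 had 10.56, 10.42 and 10.64 in FL478 salt and 6.11, 6.03 and 6.10 in IR29 salt, with Pokkali at 6.16 and IR63731 at 10.26. All FL478 arrays, replicate 2 included, lay with IR63731 and apart from IR29 and Pokkali. All 43 genes of the 13 runs had the same direction in control roots.

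**Figure D5:**
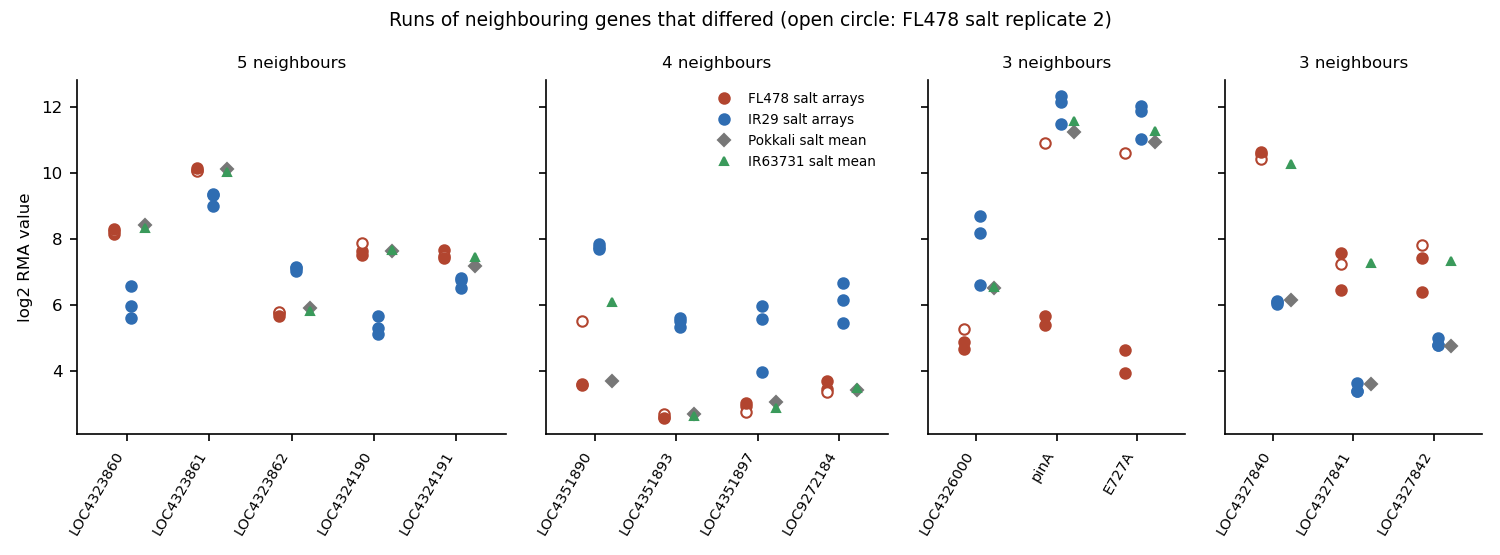
Log2 RMA values of 4 runs of neighbouring genes that differed, with each FL478 salt array (red, open for replicate 2), each IR29 salt array (blue), and the Pokkali (grey) and IR63731 (green) salt means. In the run of 5 the Pokkali means lie with FL478, and in the run of LOC4327840 they lie with IR29 while IR63731 lies with FL478.

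Some calls were made only without FL478 salt replicate 2. There were 396 such probe sets, and that choice itself favours those where replicate 2 lay towards IR29. Replicate 2 lay at least 2 log2 units from the mean of replicates 1 and 3 at 19 of the 396 and at 43 of the 1600 calls shared by both fits. NRAMP5, a gene for a manganese transporter of rice roots, had 12.70, 11.47 and 12.83 in FL478 salt, against 11.69, 11.29 and 12.07 in IR29 salt. With replicate 2 the groups overlapped and the gene did not pass (0.65, adjusted p = 0.333), and without it the difference was 1.08 (limma adjusted p = 0.0375). ART1, a factor gene of aluminium tolerance, likewise had 0.74 (adjusted p = 0.158) with it and 1.08 (adjusted p = 0.0169) without it. Both were picked out because of this change.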

How the data were processed

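One array was hybridised per root RNA sample, on the Affymetrix rice array. RMA was the authors' method for the deposited log2 values, as the submitters' processing notes say. Its version and the build behind the annotation are not given in the sources used. No coordinates or sequences are printed. Members, gene lists and the rule for named genes were chosen with earlier results of these data known.

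Left out of 57381 probe sets were 123 AFFX and 64 reporter ones. GEO's platform annotation, which can be old, paired 22436 of the rest with 1 gene, 95 with several and 34663 with none. All 17905 genes were found in the RefSeq table of assembly ASM3414082v1, which served for names (2457 genes) and for which genes are neighbours. Of several probe sets of a gene, the brightest on average stood for it, and the others can differ from it.

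A limma 3.58.1 model (R 4.3.3) of 8 group means was fitted to all 23 arrays, so that small groups share 1 estimate of the spread. Its two-sided p-values were adjusted by Benjamini-Hochberg over 57194 probe sets, with a threshold of 0.05. An exact permutation test of 3 arrays against 3 cannot give a p under 0.1. Contrasts were FL478 salt minus IR29 salt, FL478 control minus IR29 control, and the first less the second. Genes named by rule, among those passing with and without FL478 salt replicate 2, are the 12 largest differences each way with a name and the 5 largest each way of all. To these come up to 3 passing members of each list each way, 12 of 15 genes known from work on salt (SOS1, NHX1 and HAK21 were not matched by name) and 7 clock genes. Probe sets for positions between genotypes were chosen on control arrays other than FL478 replicate 3 and IR29 replicate 1.

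Results were recomputed with the replicate number as a block, with probe sets over the median level only, with a trended and robust eBayes, with array weights, after quantile normalization, without _s_at or _x_at probe sets, on only the arrays compared, without the 3 arrays between genotypes, and without each array in turn. In data simulated for the FL478 salt and IR29 salt comparison at 57194 probe sets, 66 of 66 probe sets changed 4-fold were recovered, 54 of 67 changed 2-fold, and 24 of 67 changed 1.5-fold, while 8 unchanged ones were called. Python 3.11.15 with pandas 2.3.3 and matplotlib 3.10.9 made tables and plots.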

Additional observations from a re-analysis of the deposited data

Results flagged for a closer look

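LOC4335593 was set aside because its FL478 minus IR29 difference in salt differed from that in control by the test of the difference itself, at -2.47 (SE 0.29, limma adjusted p = 0.00557). The difference was -0.21 in salt (adjusted p = 0.691) and 2.26 in control (adjusted p = 4.27e-06). It passed in 17 of 18 alternatives, with adjusted p from 9.71e-05 to 0.563.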

How the results depend on the processing

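No probe set called in the FL478 salt against IR29 salt comparison turned its sign under any alternative run. Its 2141 calls became 512 (262 higher, 250 lower) with only the arrays compared, and with the replicate block 3131, of which 1523 were lower. Leaving out each array gave 1178 to 3040 calls, 596 to 1506 higher and 582 to 1534 lower. Same-numbered FL478 and IR29 salt arrays had correlations of deviations of 0.34, 0.147 and 0.0443, the last under the minimum of 0.1 set for pairing. Differently numbered ones ran from -0.396 to 0.222. Same-numbered salt and control arrays had 0.421, 0.197 and 0.287 in FL478 and -0.179 and 0.119 in IR29. The main fit did not pair the numbers, and these values do not exclude an effect shared by arrays of 1 number. FL478 salt replicates 1 and 2 correlated best with the IR29 salt array of their own number, while replicate 3 correlated best with IR29 salt replicate 2 (0.222). The block kept 2139 of the 2141 calls. The other fits gave 1700 to 2772. For salt less control the count of 1 became 0 with the filter at the median probe set and with only the arrays compared, 2 without the 3 arrays between genotypes, and 1 to 65 with each array left out. For control roots the 788 became 239 with only the arrays compared and 289 to 778 with an array left out. Passing genes in the lists were 70, and 120 with the replicate block, 13 with only the arrays compared and 31 to 112 with an array left out. Of 82 passing named genes, 35 passed with any 1 of the 6 arrays left out, 22 passed under all alternatives run, and 58 did not pass with only the arrays compared. Of the named genes that did not pass, SAPK4 passed under 5 alternatives, and 8 changed sign. CCA1 gave -0.24 with array weights. PCL1 gave -1.03 and P5CS2 -0.13 without the 3 arrays between genotypes. With 1 array left out, PCL1 ran from -1.28 to 1.48, CCA1 from -0.47 to 1.01, P5CS2 from -0.13 to 0.26, PRR95 from -0.02 to 0.74, Dhn1 from -0.13 to 0.31, PRR37 from -0.28 to 0.14, P5CS1 from -0.23 to 0.06 and PRR1 from -0.59 to 0.12. The cause was not tested in any of these. The number of arrays limits the precision, and values near the array median may be background.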
